A study of Mus musculus with 18 samples.

Results

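The 8 genes described here are non-coding hosts of small nucleolar RNAs (snoRNAs), namely Snhg1, Snhg3, Snhg5, Snhg6, Snhg8, Snhg12, Snhg15 and Gas5. They were chosen by gene name, and each name matched 1 of the 55450 genes of the count table. The cells were mouse embryonic fibroblasts (MEF), cultured connective-tissue cells bought from a cell bank, which had been transfected with a plasmid. The 6 groups of 3 libraries were empty vector (empty pcDNA3), Col1a1-miR-29b and CMV-miR-29b cells, each without treatment or with TGF-β. The microRNA gene is driven by a collagen promoter in the Col1a1-miR-29b plasmid and by a viral promoter that is active in most cells in the CMV-miR-29b plasmid. Per the paper, both of these plasmids also carry genes of fluorescent proteins. They were given at an equal molar dose, and thus with more DNA by mass for the larger Col1a1-miR-29b plasmid. In comparisons of vectors these differences cannot be told apart from that in miR-29b. TGF-β, a cytokine that turns on matrix genes, was given at 20 ng/ml for 24 h, starting 6 h after transfection. The delivery was transient, the share of cells that took up each plasmid is not given in the sources used here, and every group, the controls included, had been transfected. Libraries were made from poly(A) RNA, and each value is therefore a bulk value of all cells in the well.

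Small nucleolar RNAs guide the chemical modification of ribosomal RNA. Box C/D snoRNAs direct methylation of the ribose, and box H/ACA snoRNAs direct the change of uridine to pseudouridine. In mammals most snoRNAs lie in introns of a host gene and are cut out of the spliced intron, so that a host gene makes a spliced, polyadenylated RNA and one or several snoRNAs at once. The spliced RNA of many hosts begins with a run of pyrimidines (5′ terminal oligopyrimidine, TOP), a feature that these genes share with mRNAs of ribosomal proteins. Because the hosts described here hold no long open reading frame, their spliced RNA is thought to be removed by nonsense-mediated decay when it is translated. Gas5 got its name from its accumulation in cells that stop growing.

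The hosts lie on 6 chromosomes of GRCm38, with Snhg3 and Snhg12 on chromosome 4 and Gas5 and Snhg6 on chromosome 1. Snhg1 (ENSMUSG00000108414) spans chr19:8723475-8726443 on the plus strand and Gas5 (ENSMUSG00000053332) spans chr1:161034422-161038539 on the plus strand, and they have the most annotated exons in a transcript, 10 and 12. Snhg12 (ENSMUSG00000086290) is at chr4:132308623-132311024 on the plus strand and Snhg3 (ENSMUSG00000085241) at chr4:132348014-132353686 on the minus strand. Snhg8 (ENSMUSG00000104960), at chr3:123507552-123508404 on the minus strand, is the shortest, with 853 bases. Snhg5 (ENSMUSG00000097195) is at chr9:88521050-88522929, Snhg6 (ENSMUSG00000098234) at chr1:9941959-9944118 and Snhg15 (ENSMUSG00000085156) at chr11:6525591-6528760, all on the minus strand. None is annotated as protein-coding.

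The first bases of the transcripts are shown because the spliced RNA of many hosts, though not of all, begins with a pyrimidine run. Each line gives 15 bases before the RefSeq start and 15 bases from it on, on the strand of the gene, on GRCm38.p6. Capitals mark a run of at least 5 pyrimidines that begins with C and whose first base lies within 10 bases of the annotated start.
Snhg1: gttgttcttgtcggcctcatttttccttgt
Snhg3: tagtcgaccacgcctgaCTTCCgggcgtta
Snhg5: gagctgcggtgaaccgggctcgttCTTTTa
Snhg8: gcaccgttcagaagtCTCTTTggctgcgat
Snhg12: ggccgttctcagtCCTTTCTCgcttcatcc
Snhg15: cgctgctgtgaccgtaactttaagcacacg
Gas5, upstream start: agggggcgggcccgcgagctcgacagcccg
Gas5, downstream start: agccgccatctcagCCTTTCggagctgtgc
RefSeq gave a start for 7 of the 8 genes, and Snhg6 has no entry. Such a run was found in 5 of these 7 genes, or 5 of 8 start entries, beside 29.0% of the 32851 start entries of all genes. The run of Snhg8 began at the annotated start itself, that of Snhg12 began 2 bases before it and that of Snhg3 began 2 bases after it. Of the 2 start entries of Gas5, only the downstream one held the run. Near the start of Snhg1 the pyrimidines are broken by a purine, and no run met this definition. The E-box CACGTG, a palindrome that reads the same on both strands, was found in the window of 250 bases before to 50 bases after the start of Snhg15 alone, beginning 11 bases after the start, and in 7.15% of all entries.

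The transfected microRNA was compared with the hosts at the level of sequence, because a change of a host in the miR-29b cells is read against whether it holds the sequence that miR-29b pairs with. The mature miR-29b-3p (RefSeq, GRCm38.p6, chr6:31063025-31063047, minus strand) is shown with its seed, bases 2 to 8, in capitals.
miR-29b-3p: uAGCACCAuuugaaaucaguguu
The seed pairs with TGGTGCT, searched on the transcript strand only. It was present in every annotated transcript of Snhg8, 3 of 3, in exon 1. Capitals mark it in the 30 bases around each distinct site of the host genes.
Snhg8, chr3:123508215-123508244, minus strand: caaggtggctaTGGTGCTggccgaaagcca
Snhg1, chr19:8724488-8724517, plus strand: gtattgatggtTGGTGCTtccttagggaac
Snhg5, chr9:88521626-88521655, minus strand: gtgcatgtgagTGGTGCTctgttttgtttt
In Snhg1 the site was in 6 of 18 transcripts and in Snhg5 in 1 of 6, and all of these transcripts are annotated as retained introns. No transcript of Snhg3, Snhg6, Snhg12, Snhg15 or Gas5 held it. Among the 21161 genes tested, 33.5% held the site in any transcript and 8.84% in every transcript. The match is a description of letters and does not show that the site is bound.

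Total counts per library ranged from 65898017 to 80332633. Mir29b-1, the mouse gene of the transfected microRNA, had 0 counts in all 6 empty vector libraries. It had 0 to 1 in Col1a1-miR-29b cells and 2 to 6 with TGF-β, and 110 to 309 in CMV-miR-29b cells and 203 to 293 with TGF-β. Per the paper the plasmids hold the human sequence of this microRNA gene, and how fully its reads are counted at the mouse gene was not tested. The treatment labels were matched by Acta2, the smooth muscle actin of activated fibroblasts, at a normalized count of 152.6 to 298.5 in the 9 libraries without TGF-β and 724.3 to 896.9 in the 9 with it. Of 8 fibroblast markers, Col1a1, Col1a2, Vim and Fn1 had at least 31792 counts in every library, Pdgfrb and Dcn were lower, Thy1 had at most 8 and Lum had 0. Of 13 markers of other cells, Cd68 had 613 to 1004 counts and Nanog 68 to 172, and the other 11 stayed at or below 152. In the authors' FPKM, a level per gene length, Cd68 had 5.79 to 9.46, above Pdgfrb at 1.84 to 4.43 and Dcn at 0.312 to 0.988. The part of other cells in the results below was not tested, and in bulk RNA fewer cells of a type cannot be told apart from less RNA per cell.

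All 8 hosts were well above the detection limit in every library, and Gas5 and Snhg1 made up most of their reads. The smallest raw count of any of them was 503, for Snhg6 in a CMV-miR-29b library with TGF-β. Together they took 0.0313% to 0.0378% of all counts. Gas5 alone took 38.7% to 42.9% of the reads on the 8 genes, and Snhg1, the host of Snord22, took 24.6% to 28.7%. All 8 passed the filter on low counts.

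Levels of different genes were compared per length. In the authors' FPKM, which divide fragments by gene length and by library size, the 16 libraries used had a mean of 33.1 ± 2.32 (SD) for Gas5, 32.8 ± 3.58 for Snhg8 and 27.3 ± 1.69 for Snhg1. Snhg12 had 11.7 ± 0.847, Snhg3 10.2 ± 1.29, Snhg5 8.66 ± 0.929, Snhg15 7.68 ± 0.707 and Snhg6 6.91 ± 1.22. Only 1 step in this order was wider than the spread between libraries. The lowest library of Snhg1 had 24.1 FPKM and the highest of Snhg12 13.1, whereas the ranges of all other neighbours in the order overlapped. Among the lower 5 genes, the lowest library of Snhg12, at 10.31 FPKM, was above the highest of Snhg5, at 10.3, Snhg6, at 9.55, and Snhg15, at 8.63, whereas the ranges of the upper 3 genes all overlapped.

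This order also depended on what is taken as the length of a host. The length implied by each gene's count and FPKM was 1.12 times the number of bases covered by any annotated exon, and the ratio was the same for all 8 genes. That number counts retained introns as exon. For Gas5, with 20 of 25 transcripts annotated as retained introns, it was 3760 bases, although its mean transcript has 741. For Snhg8, with 3 transcripts, it was 853 bases beside a mean of 584. Scaled by the mean transcript length, counts scaled to library size (CPM) per kilobase were 187 for Gas5, 112 for Snhg1 and 53.0 for Snhg8. On that scale Snhg8 stood below Snhg1, not above it. Snhg12 followed with 33.0, Snhg3 with 25.7, Snhg15 with 20.7, Snhg5 with 20.1 and Snhg6 with 15.2 CPM per kilobase. Gas5 was highest and Snhg6 lowest on both scales.

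**Figure D1:**
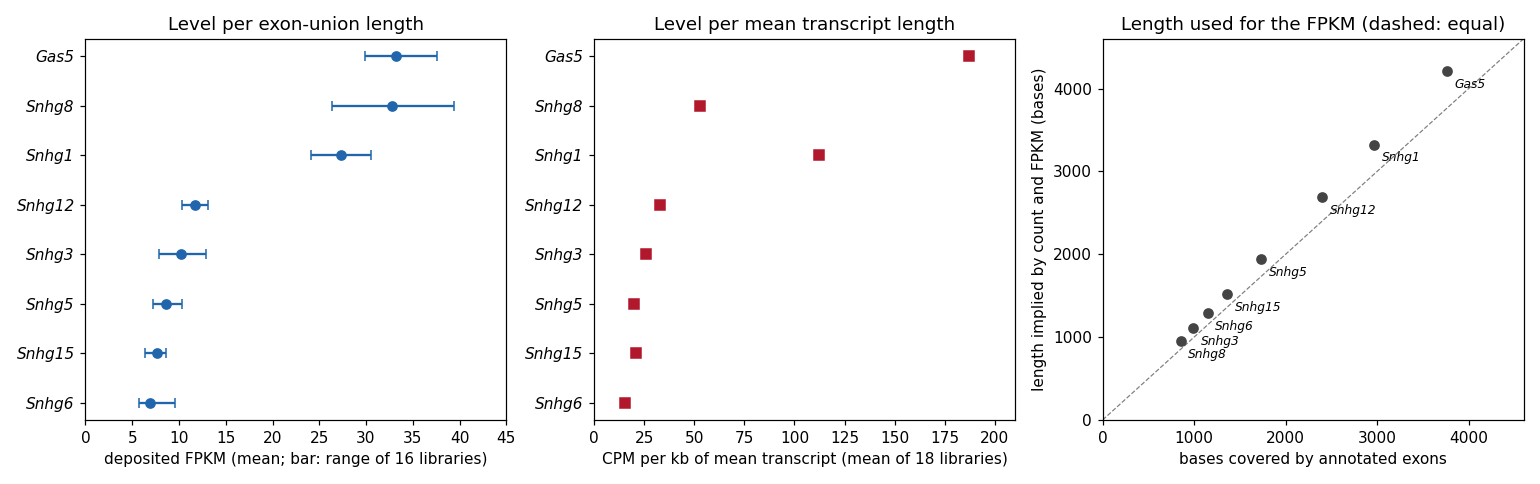
Left, deposited FPKM of each host (point, mean; bar, lowest to highest of 16 libraries); middle, mean CPM per kilobase of mean transcript length in 18 libraries; right, length in bases implied by count and FPKM against the bases covered by annotated exons, with a dashed line where they are equal. Snhg8 is level with Gas5 at 32.8 and 33.1 FPKM but at 53.0 against 187 CPM per kilobase, and every gene lies 1.12 times above the line.

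The host levels were steady across the 18 libraries. Normalized counts, here counts scaled by TMM factors to a common library size, differed between the highest and the lowest library by 1.31-fold for Gas5 and Snhg1, 1.34-fold for Snhg12, 1.36-fold for Snhg15, 1.49-fold for Snhg8, 1.61-fold for Snhg5, 1.64-fold for Snhg3 and 1.67-fold for Snhg6. The coefficient of variation over all libraries was 6.79% for Snhg1 and 17.7% for Snhg6, with the other 6 genes between. The empty vector library d was the lowest of the 18 for Snhg1, Snhg3 and Snhg15. The empty vector library e with TGF-β was the highest for Snhg1, Snhg5 and Snhg12. Summed over the 8 genes, the normalized count was 27314 ± 2368 (SD, n = 3) in empty vector cells with TGF-β, the highest group, and 24154 ± 380 (SD, n = 3) in Col1a1-miR-29b cells, the lowest.

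**Figure D2:**
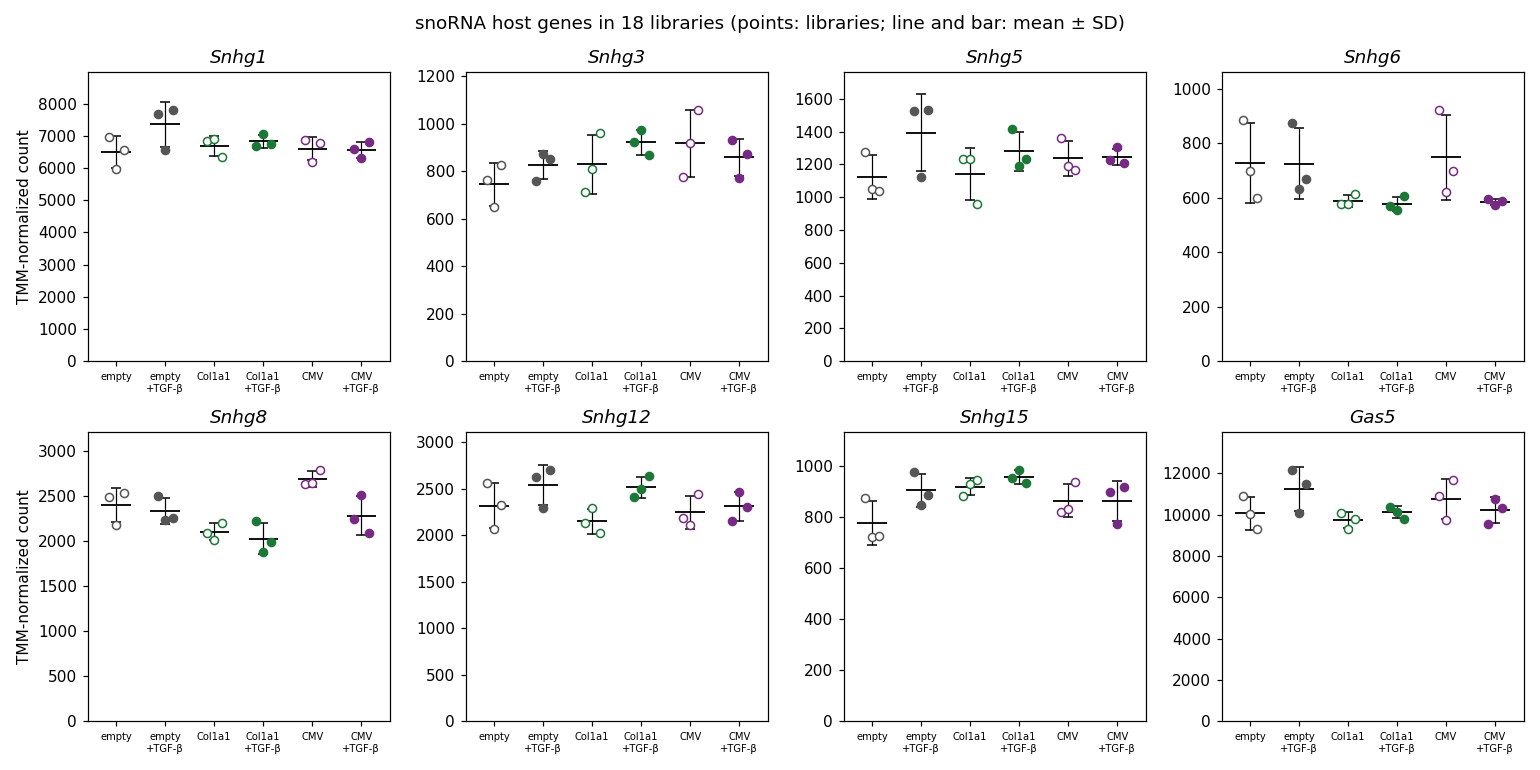
TMM-normalized counts (y axis, from 0) of the 8 hosts in the 6 groups (x axis), with 1 point for each of 3 libraries, open without and filled with TGF-β; lines and bars give the mean ± SD. Snhg8 in Col1a1-miR-29b cells, at 2021 to 2208, lies below all 3 CMV-miR-29b libraries, at 2642 to 2795, and the 6 groups of Snhg1 and Gas5 overlap widely.

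The level of each host in the 6 groups is given here as normalized counts, mean ± SD with n = 3. Gas5 ran from 9731 ± 391.0 in Col1a1-miR-29b cells through 10068 ± 791.3 in empty vector, 10108 ± 294.4 in Col1a1-miR-29b with TGF-β, 10210 ± 630.7 in CMV-miR-29b with TGF-β and 10770.5 ± 973.4 in CMV-miR-29b to 11237 ± 1073 in empty vector cells with TGF-β. The libraries of each neighbouring pair in that order overlapped. Snhg1 stayed between 6493 ± 493.8 in empty vector cells and 7351 ± 686.1 in the same cells with TGF-β, and the other 4 groups lay from 6564 to 6832. The treated empty vector group was thus the highest for both of the most abundant hosts, with the widest spread between libraries.

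Snhg12, the host of Snora44, was lowest in Col1a1-miR-29b cells, at 2147.5 ± 134.4, and highest in empty vector cells with TGF-β, at 2540 ± 217.6, with Col1a1-miR-29b with TGF-β close by at 2514 ± 115.1. Its other groups were empty vector at 2319 ± 245.8, CMV-miR-29b at 2248 ± 177.6 and CMV-miR-29b with TGF-β at 2308.5 ± 157.0. Snhg5 was lowest in empty vector cells, at 1121.5 ± 134.0, and highest in the same cells with TGF-β, at 1394 ± 236.2, while the remaining groups had 1141 to 1280. In both genes, treated groups had the higher mean within each vector, and no such difference passed the test below.

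Snhg3 and Snhg15 were lowest in untreated empty vector cells. Snhg3 had 744.8 ± 90.8 there, 826.7 ± 58.8 with TGF-β, 828.0 ± 125.0 and 920.6 ± 52.1 in Col1a1-miR-29b cells without and with TGF-β, and 917.5 ± 140.8 and 857.2 ± 79.2 in CMV-miR-29b cells. Snhg15 had 775.4 ± 86.4 in empty vector cells and 904.2 ± 64.9 with TGF-β, 919.4 ± 32.6 and 957.0 ± 25.8 in Col1a1-miR-29b cells, and 864.7 ± 64.6 and 863.8 ± 78.1 in CMV-miR-29b cells. Snhg6 and Snhg8 had another order, with the lowest means in Col1a1-miR-29b cells with TGF-β, 576.7 ± 26.6 for Snhg6 and 2031 ± 173.9 for Snhg8, and the highest in untreated CMV-miR-29b cells, 747.8 ± 156.6 and 2694 ± 86.7. Library c of that group had 923.1 for Snhg6 and the other two had 621.5 and 698.9, whereas the 3 libraries of Snhg8 lay within 2642 to 2795.

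Across 14 comparisons of the 8 genes, 112 tests in all, 2 passed an adjusted p of 0.05, and both were for Snhg8. Of all genes, 21.8% and 1.81% passed in those 2 comparisons, and the share ran from 0% to 21.8% over the 14. The tests were edgeR's quasi-likelihood tests with Benjamini-Hochberg adjustment over all 21161 genes, and log2 fold changes are given with their 95% interval. The 2 comparisons of Snhg8 share the Col1a1-miR-29b libraries without TGF-β.

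The question of the TGF-β comparisons was whether host RNA changed when the cells were stimulated. In empty vector cells none of the 8 hosts passed, while 5.88% of all genes did. Differences were above 0 for 6 hosts, with a median of 0.15 beside 0.002 over all genes tested. Snhg1 had normalized counts of 6952, 5971 and 6558 without and 7678, 6562 and 7812 with TGF-β. The groups overlapped in that the treated library d stood at the level of the untreated ones, and the log2 fold change was 0.18 (0.029 to 0.33, adjusted p = 0.184). Without that library Snhg1 passed, at 0.24 and an adjusted p of 0.0393.

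Snhg5, the host of Snord50a and Snord50b, had the largest difference in empty vector cells. Its normalized counts were 1276, 1053 and 1036 without and 1526, 1121 and 1535 with TGF-β. Library d of the treated group again lay among the untreated libraries, and the log2 fold change was 0.31 (0.030 to 0.60, adjusted p = 0.232). Gas5, with 10884, 10015 and 9304 without and 12162, 10061 and 11487 with TGF-β, differed by 0.16 (−0.010 to 0.33, adjusted p = 0.329). Snhg15, the host of Snora9, differed by 0.22 (0.017 to 0.43, adjusted p = 0.244). Snhg3, Snhg12, Snhg6 and Snhg8 differed by 0.15, 0.13, −0.004 and −0.041. For the 8 hosts the widest limits of any interval were −0.34 and 0.60, so that changes beyond 1.51-fold up lay outside all of them.

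In cells with the Col1a1-miR-29b vector, again none of the 8 hosts passed for TGF-β, beside 4.32% of all genes. Their median log2 difference was 0.056. Snhg12, which carries snoRNAs of both box classes, was the only host whose groups did not overlap. It had 2132, 2289 and 2022 normalized counts without and 2406, 2501 and 2635 with TGF-β. All 3 treated libraries were above the untreated ones, with a log2 fold change of 0.23 (0.035 to 0.42, adjusted p = 0.234). Groups were separate in this way for 21.9% of all genes. Averaged over the 3 vectors, Snhg12 had a log2 difference of 0.13 (0.021 to 0.24, adjusted p = 0.12), the smallest adjusted p of the 8 hosts there, with none passing beside 13.7% of all genes.

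In CMV-miR-29b cells none of the hosts passed either, beside 4.95% of all genes, and 6 of 8 differences were below 0. Snhg6 and Snhg8 did not overlap between the groups, as for 20.9% of all genes. Snhg6, the host of Snord87, had 923.1, 621.5 and 698.9 normalized counts without and 595.6, 573.7 and 586.5 with TGF-β. The treated libraries lay together just under the lowest untreated one, and the log2 fold change was −0.35 (−0.69 to −0.015, adjusted p = 0.295). Snhg8 had 2642, 2647 and 2795 without and 2244, 2519 and 2096 with TGF-β. All 3 treated libraries were lower, with a log2 fold change of −0.24 (−0.42 to −0.059, adjusted p = 0.145).

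The responses of the vectors were compared directly. The log2 response to TGF-β was lower in CMV-miR-29b than in empty vector cells for all 8 hosts, by a median of 0.23, as the fitted differences ran from −0.35 for Snhg6 to −0.093 for Snhg12. None of these differences passed, and the smallest adjusted p was 0.922, for Gas5. These 8 values share the same 12 libraries and are not 8 independent observations. Between Col1a1-miR-29b and empty vector cells the differences ran from −0.16 to 0.096, and none passed. In either of these comparisons 0% of all genes passed with edgeR, and 961 genes for Col1a1-miR-29b and 1129 for CMV-miR-29b had an unadjusted p under 0.05, none of them a host. The intervals of the hosts reached from −0.83 to 0.18 in the CMV-miR-29b comparison, so that a 1.5-fold lower response lay inside some of them. In the Col1a1-miR-29b comparison they reached from −0.55 to 0.45, and a 1.5-fold difference in response lay outside all of them.

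**Figure D3:**
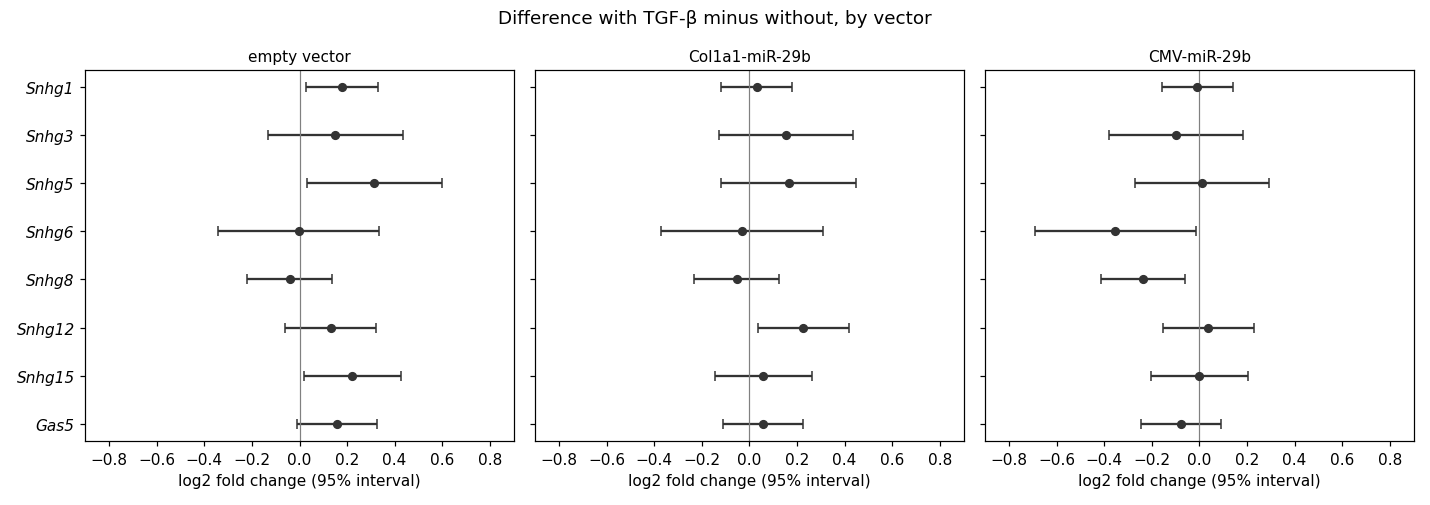
Log2 fold change with minus without TGF-β (x axis; point, fitted value; bar, 95% interval) for the 8 hosts in cells with each of the 3 vectors. No host passed in any vector, and Snhg6 with −0.35 and Snhg8 with −0.24 in CMV-miR-29b cells are the lowest points.

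The vectors were then compared at equal treatment, to see whether host RNA differed where miR-29b was given. The host with a difference past the threshold was Snhg8, the host of Snora24. It was lower in Col1a1-miR-29b cells than in empty vector cells, by 0.196 on the log2 scale averaged over both treatments (0.873-fold, 95% interval −0.32 to −0.070, adjusted p = 0.0265). In this comparison 21.8% of all genes passed, with 10.1% higher and 11.6% lower, and 1 of the 8 hosts did. Normalized counts of Snhg8 without TGF-β were 2494, 2184 and 2536 in empty vector cells and 2094, 2021 and 2208 in Col1a1-miR-29b cells. The lowest empty vector library lay within the range of the Col1a1-miR-29b libraries. With TGF-β they were 2505, 2242 and 2264 in empty vector and 2222, 1882 and 1990 in Col1a1-miR-29b cells, and there the groups did not overlap, as for 30.0% of all genes.

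Neither treatment alone brought Snhg8 past the threshold. The log2 fold change was −0.19 without TGF-β (adjusted p = 0.2), where none of the hosts passed beside 6.27% of all genes. It was −0.20 with TGF-β (adjusted p = 0.133), where none passed beside 12.9% of all genes. The averaged call was lost in 5 of 13 other settings, at adjusted p values up to 0.0903, among them the replicate block (−0.215, adjusted p = 0.0813). That block was fitted without the Col1a1-miR-29b libraries that bear no replicate letter, and leaving those out without a block also lost the call. The call was also lost without any of 5 single libraries, at adjusted p values up to 0.0588. These were empty vector replicates c and e, empty vector replicate c with TGF-β and replicate d of both Col1a1-miR-29b groups. Corrected for transcript length and GC content it was −0.42 (adjusted p = 0.000242), more than 1.5 times the reported value. The hosts were short and poor in G and C, with a median transcript length of 663 bases and 43.1% GC beside 1555 bases and 50.1% over all genes tested, and their part in the value of Snhg8 was not tested further.

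Snhg8 was also compared between CMV-miR-29b and empty vector cells. The Mir29b-1 counts given above are of poly(A) RNA and not of mature miR-29b, and the part of miR-29b in the level of Snhg8 was not tested. In CMV-miR-29b cells, the averaged difference of Snhg8 to empty vector cells was 0.066 (−0.060 to 0.19, adjusted p = 0.714). Without TGF-β it was 0.16 (−0.014 to 0.34, adjusted p = 0.918), and all 3 CMV-miR-29b libraries, at 2642, 2647 and 2795, lay above the 3 empty vector libraries, as in 10.6% of all genes with separate groups. The direct comparison of the 2 miR-29b vectors without TGF-β was the second call. Snhg8 was 1.28-fold higher in CMV-miR-29b than in Col1a1-miR-29b cells (log2 fold change 0.35, 0.18 to 0.53, adjusted p = 0.0456), the only host to pass beside 1.81% of all genes, with 1.0% higher. The groups of Snhg8 and Snhg6 did not overlap here, as for 22.0% of all genes. It lay close to the threshold, and it was lost when any of 11 single libraries was left out, at adjusted p values up to 0.16, and in 8 of 13 other settings. With offsets for length and GC content it was 0.51 (adjusted p = 0.0084). With TGF-β the same difference was 0.17 (−0.008 to 0.35, adjusted p = 0.345), and none of the hosts passed beside 1.93% of all genes.

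Snhg6 had the lowest fold change of the hosts in Col1a1-miR-29b cells and just missed the threshold. Without TGF-β its normalized counts were 885.4, 696.2 and 598.1 in empty vector cells and 577.6, 575.2 and 614.2 in Col1a1-miR-29b cells. With TGF-β they were 873.1, 631.2 and 670.1 against 570.1, 553.9 and 606.0, and there the groups did not overlap, as for 30.0% of all genes. The 6 Col1a1-miR-29b libraries lay closely together, whereas 1 library of each empty vector group stood well above the rest. The averaged log2 fold change was −0.32 (−0.56 to −0.077, adjusted p = 0.0574). It passed with DESeq2 (−0.33, adjusted p = 0.0279) and with offsets for length and GC content (−0.53, adjusted p = 0.00794). In CMV-miR-29b cells with TGF-β, Snhg6 was also below all 3 empty vector libraries, where groups did not overlap for 15.9% of all genes (log2 fold change −0.31, −0.65 to 0.031, adjusted p = 0.461).

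Snhg15 was the only host whose value was above 0 with its groups apart in the Col1a1-miR-29b comparison. Without TGF-β it had 875.1, 723.2 and 727.9 normalized counts in empty vector cells and 883.3, 928.3 and 946.6 in Col1a1-miR-29b cells. The highest empty vector library was just under the lowest of the other group, and the log2 fold change was 0.25 (0.041 to 0.45, adjusted p = 0.144). Groups did not overlap for 29.0% of all genes in this comparison. Averaged over treatments the value of Snhg15 was 0.16 (adjusted p = 0.101), and with offsets for length and GC content it changed sign to −0.081 (adjusted p = 0.465). Averaged in the same way, Snhg3 was 0.15, Snhg5 −0.049, Snhg12 −0.063, Gas5 −0.10 and Snhg1 −0.031, none past the threshold. With the same offsets Gas5, at −0.28 (adjusted p = 0.00578), and Snhg1 passed as well.

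The comparison of CMV-miR-29b with empty vector cells gave no call for any host. None passed without TGF-β, beside 0.00473% of all genes, with TGF-β, beside 0.00945%, or averaged, beside 0.0898%. Without TGF-β 7 of 8 differences were above 0, and with TGF-β 7 of 8 were below 0. Snhg3, the host of Snora73a and Snora73b, had the largest of them without TGF-β, with 761.4, 646.8 and 826.1 normalized counts in empty vector and 776.9, 917.2 and 1058.5 in CMV-miR-29b cells. The groups overlapped, and the log2 fold change was 0.30 (0.017 to 0.58, adjusted p = 0.885). With TGF-β Snhg1 differed by −0.16 (−0.31 to −0.013, adjusted p = 0.379). Over the 8 hosts the averaged intervals lay between −0.37 and 0.38.

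**Figure D4:**
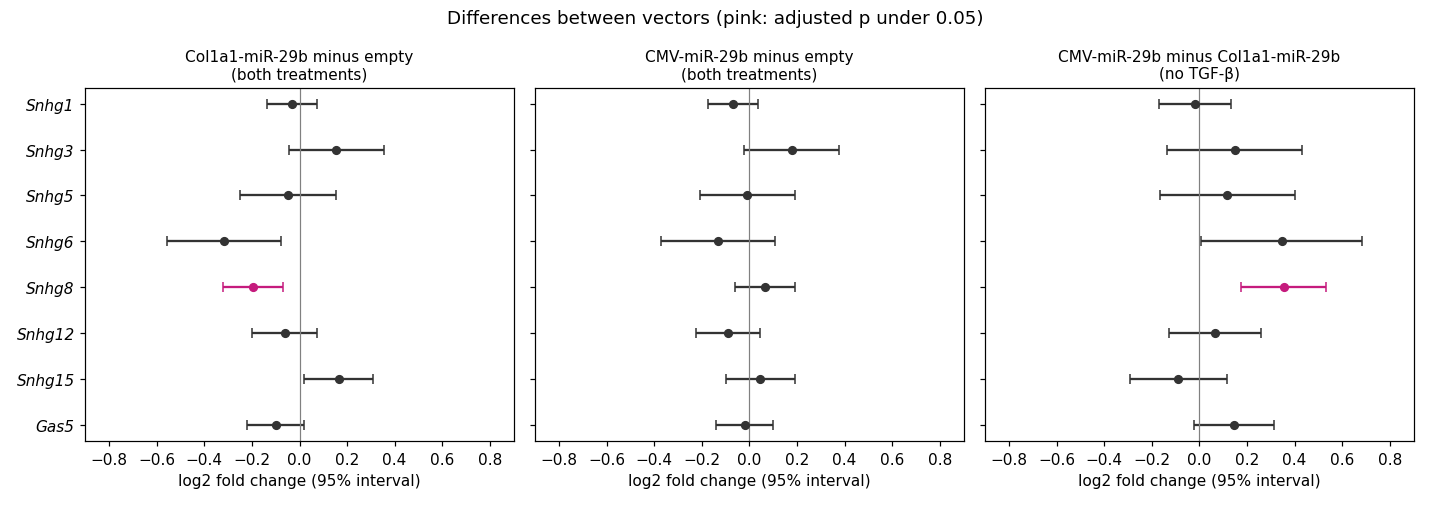
Log2 fold changes (x axis; point, fitted value; bar, 95% interval) of the 8 hosts between vectors, in pink where the adjusted p is under 0.05. Snhg8 is the only pink point, at −0.20 for Col1a1-miR-29b minus empty vector and 0.35 for CMV-miR-29b minus Col1a1-miR-29b, and in the middle panel every interval includes 0.

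The snoRNAs inside the hosts could be followed only in part, in libraries of poly(A) RNA. The table listed 30 snoRNA genes within the hosts on the same strand, 10 in Gas5, 8 in Snhg1, 5 in Snhg12, 2 each in Snhg3 and Snhg5 and 1 each in Snhg6, Snhg8 and Snhg15. Of these, 11 had exactly 1 count in all 18 libraries, and 9 had a mean of at least 10 counts. All 9 lie inside an annotated exon of at least 1 transcript of the host, so that reads of the snoRNA and of unspliced host RNA cannot be told apart. The highest was Gm22357 in Gas5 (chr1:161036057-161036139 on GRCm38), with 76 to 130 counts per library and no call. Snord80, a second snoRNA of Gas5 that overlaps another entry of the same name, had 20 to 60 counts and no call. Gm24452 and Gm25894 in Snhg1, Snora24 in Snhg8, Snora9 in Snhg15 and Mir5117 and Gm25789 in Gas5 ranged between 1 and 62 counts, each with 3 counts or fewer in at least 2 libraries, and none was called.

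Snora44, an H/ACA snoRNA in Snhg12 (chr4:132309941-132310069 on GRCm38), was the only one of the 9 that was called. Snora44 was called for Col1a1-miR-29b against empty vector cells with TGF-β, beside 12.9% of all genes, and averaged over treatments, beside 21.8%. With TGF-β it had 18, 21 and 15 counts in empty vector cells and 1, 1 and 3 in Col1a1-miR-29b cells, where all libraries were at or under a floor of 3 counts per library. The mean normalized count of Snora44 in empty vector cells with TGF-β was 5.87 times that floor, a ratio without a margin for the spread between libraries. The call with TGF-β had an adjusted p of 0.0176. That call was lost with the replicate block, which was fitted without the unlettered libraries (adjusted p = 0.0542). Without TGF-β the counts were 35, 12 and 10 in empty vector and 13, 1 and 10 in Col1a1-miR-29b cells, and these overlapped. Averaged over treatments the adjusted p of Snora44 was 0.01. Its host Snhg12 had a log2 fold change of −0.015 (−0.21 to 0.18) in the comparison with TGF-β. Gm24452 in Snhg1 likewise had 1, 1 and 3 counts in Col1a1-miR-29b cells with TGF-β, beside 51, 42 and 27 in empty vector cells with TGF-β. Its mean in those empty vector cells was 13.1 times the floor, again without such a margin, and it did not pass (adjusted p = 0.075). Without TGF-β it had 1, 53 and 1 counts in empty vector and 42, 1 and 20 in Col1a1-miR-29b cells, so libraries of 1 group differed as widely.

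Coding neighbours on the other strand were set beside 2 of the hosts. Slc3a2, the heavy chain of amino acid transporters, starts 106 bases from Snhg1 and had a mean normalized count of 41376.9. It did not pass in any of the 14 comparisons, and neither did Snhg1. Zbtb37, a zinc finger gene, starts 427 bases from Gas5 and overlaps it by 428 bases. It was lower in Col1a1-miR-29b than in empty vector cells by 0.486 on the log2 scale (adjusted p = 0.000716), where Gas5 was at −0.10. Snhg3 overlaps Gm17300 by 1611 bases and Snhg6 overlaps Mcmdc2 by 127 bases on opposite strands. The library kit keeps strand, but whether the counting used it is not given in the sources used here, so reads in these overlaps are uncertain.

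The wider class of host genes and of mRNAs with a TOP start was described from 3 further lists. Of 11 other non-coding hosts, none passed for Col1a1-miR-29b averaged over treatments, beside 21.8% of all genes, with a median of 0.15. In empty vector cells 2 rose with TGF-β, Zfas1 by 0.42 (adjusted p = 0.0432) and Snhg17 by 0.29 (adjusted p = 0.0256), beside 5.88% of all genes called. This count was 1 with the replicate block and 0 to 2 under the other settings. Averaged over vectors Snhg17 rose by 0.15 (adjusted p = 0.0242) and Dancr fell by 0.265 (adjusted p = 0.0475), beside 13.7% of all genes called. Of 23 protein-coding hosts, 8 fell in Col1a1-miR-29b cells averaged over treatments and none rose, beside 11.6% of all genes that fell and 10.1% that rose. Their median was −0.081 beside 0.023 over all genes, and 5 fell with the replicate block. Among them were the translation elongation factor Eef2, at −0.20 (adjusted p = 0.000885), the mitochondrial chaperone Hspa9, at −0.25 (adjusted p = 0.00109), and the ribosomal protein gene Rpl10, at −0.24 (adjusted p = 0.00132). Of 13 further coding mRNAs with a TOP start, 5 fell and none rose, beside the same 11.6% and 10.1%, with a median of −0.088. The lowest adjusted p values belonged to Hnrnpa1, an RNA-binding protein, at −0.36 (adjusted p = 0.000224), the elongation factor Eef1a1, at −0.25 (adjusted p = 0.000551), and the initiation factor Eif4b, at −0.27 (adjusted p = 0.00102). For TGF-β averaged over vectors, Eif4a1 at 0.14 (adjusted p = 0.03) was the only call among these 36 genes, beside 13.7% of all genes.

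The proteins that package snoRNAs, and the factors that decay the spliced host RNA, were described from 3 lists. Of 8 core proteins of box C/D and H/ACA particles, 4 rose in Col1a1-miR-29b cells averaged over treatments and none fell, beside 10.1% of all genes that rose. They were Nop10, at 0.33 (adjusted p = 5e-05), Snu13, at 0.14 (adjusted p = 0.0104), Nop56, at 0.22 (adjusted p = 0.0143), and Nhp2, at 0.17 (adjusted p = 0.0194). With offsets for length and GC content only 1 of the 8 rose, and with the replicate block 2 did. Of 9 assembly factors, Znhit3 was higher, at 0.35 (adjusted p = 0.0312), though it turned to −0.025 with those offsets and the replicate block together, and Shq1, at −0.28 (adjusted p = 0.0357), and Nufip1, at −0.10 (adjusted p = 0.0424), fell. These 3 of 9 stand beside 21.8% of all genes called in either direction. Of 14 factors of nonsense-mediated decay 4 were called, beside the same 21.8%, so the share is near that of all genes. The kinase Smg1 was at −0.30 (adjusted p = 0.000153) and Smg9 at −0.18 (adjusted p = 0.0304), while Smg8 was higher by 0.096 (adjusted p = 0.0258), and the exon junction protein Magoh was higher by 0.20 (adjusted p = 0.00286) but at −0.008 with the offsets. With TGF-β averaged over vectors, where 13.7% of all genes were called, Nop10 fell by 0.11 (adjusted p = 0.0234), Nufip1 by 0.089 (adjusted p = 0.0425) and Upf3a, a decay factor, by 0.127 (adjusted p = 0.0322). In CMV-miR-29b cells averaged over treatments, no gene of any of these 6 lists passed, beside 0.0898% of all genes.

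Across the 18 libraries the hosts varied together in part. Of 28 pairs of hosts, 22 had a Pearson correlation of log2 CPM above 0, with a median of 0.32, from −0.36 for Snhg8 and Snhg15 to 0.72 for Snhg1 and Snhg5. The libraries share groups and normalization, so these values are a description. The mean standardized pattern of the 8 hosts, itself built from them, correlated with Gas5 at 0.85, Snhg1 at 0.80, Snhg5 at 0.75 and Snhg12 at 0.73, and with Snhg8 at 0.36 and Snhg3 at 0.25. Of 13956 genes whose CPM averaged 1 or more, the 5 others most like it were Olfml2b at 0.86, 1110038B12Rik at 0.83, Eif3m at 0.83, Naca at 0.82 and Yif1b at 0.82. Snhg8, the only host with a call, was thus among the 2 that followed the common pattern least.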

How the data were processed

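Poly(A) RNA of 18 libraries was sequenced. Per the labels and methods, the authors trimmed reads with cutadapt, mapped them with HISAT2 and assembled them with StringTie. The deposited counts are whole numbers per gene without normalization, and how they were taken is not given in the sources used here. The authors also deposited FPKM values. The labels list mm9, but coordinates of 52506 of the 55450 genes were identical to GENCODE M21 (GRCm38), which was used here. The 16 columns of FPKM that match a sample were used. In both Col1a1-miR-29b groups, 1 column bears a letter of no sample. It was used as an unlettered library for its counts only, so 2 FPKM columns were not used. Among counts from 1 to 40, 35.2% were multiples of 4 (25% if even), and 143 genes had 1 count in every library, so counts carry error beyond sampling. The study's text gives 3 repeats of the experiment per group without saying how cultures were split, and p-values measure the spread between libraries.

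Counts were fitted with edgeR 4.0.16 in R 4.3.3 (filterByExpr, 21161 genes, TMM, 1 mean per group, all 18 libraries, quasi-likelihood F tests, Benjamini-Hochberg adjustment, threshold 0.05). Tested on simulated data of the TGF-β comparison in empty vector cells (20565 genes), the fit recovered 47.8% of 67 genes changed 1.5-fold, 83.6% of 67 changed 2-fold and 95.5% of 66 changed 4-fold, with 6 false calls. Alternatives used DESeq2 1.42.0, limma 3.58.1 on log2(FPKM + 1) and log2(FPKM + 0.1), other scalings, filters and libraries, a replicate block, counts divided by 4, and offsets for transcript length and GC content. Fits with a replicate block left out the unlettered libraries. Named were the 8 hosts, snoRNA genes inside them with a mean of at least 10 counts, the coding neighbour on the other strand within 2000 bases, up to 3 called genes per list and comparison, the 5 genes most like the hosts in pattern, and checks of the labels. Beyond that rule, Nhp2 and Smg9 were named after their values were seen. The hosts and the lists were chosen with earlier results of these data known.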

Additional observations from a re-analysis of the deposited data

How the results depend on the processing

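Over the 8 hosts and 14 comparisons, 1421 of 1448 log2 fold changes under other settings and 1994 of 2016 with a library left out kept their side of the threshold, and none that was called in either fit changed sign. Values not called in either fit changed sign 76 times under other settings and 76 times with a library left out. The number of hosts called for CMV-miR-29b against Col1a1-miR-29b without TGF-β went from 1 to 0 with scaling by total counts, the filter of at least 1 count in any library, the groups compared alone, without the unlettered libraries, and with limma on log2(FPKM + 1) and on log2(FPKM + 0.1), and ran from 0 to 1 with a library left out. For Col1a1-miR-29b against empty vector averaged over treatment, 1 host became 2 with DESeq2, with the filter of at least 10 counts in every library and with counts divided by 4, all Snhg6 and Snhg8, became 0 without the unlettered libraries and with both limma fits, became 4 with offsets for length and GC content, and ran from 0 to 2 with a library left out. These offsets also gave 1 host without and 2 with TGF-β for the same vectors, where none was called. For TGF-β in empty vector cells the range with a library left out was 0 to 1, and for the other 11 comparisons it was 0 to 0. The share of all genes called under each of these settings is not given here, nor is it for the fits with a replicate block below. These counts are therefore not read as a result about the hosts alone. The cause of these shifts was not tested.

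The replicate block was fitted without the unlettered libraries, so its shifts are not those of the block alone. With the replicate block, 0 hosts were called between the miR-29b vectors without TGF-β. In Col1a1-miR-29b against empty vector averaged over treatment 1 was called, Snhg6 at −0.39 (adjusted p = 0.0385) in place of Snhg8 at −0.21 (adjusted p = 0.0813). With offsets and block together the counts were 0 and 3, and 1 for these vectors with TGF-β. Libraries of the same letter did not deviate together (mean correlation 0.0067 over 36 pairs, −0.0035 over 70 pairs of different letters), so the letters were not taken as pairs. In the averaged Col1a1-miR-29b comparison Magoh turned from 0.20 to −0.008 with the offsets and to −0.038 with offsets and block, and Znhit3 to −0.025 with both. The 8 protein-coding hosts that fell there were 5 to 8 under other settings, the 5 mRNAs with a TOP start 4 to 5, and the 4 core proteins that rose 1 to 4. The 2 other non-coding hosts that rose with TGF-β in empty vector cells were 0 to 2. Snora44 with TGF-β missed the threshold with the block (adjusted p = 0.0542). No host was near the floor of 3 counts, whereas 11 of the 30 snoRNA genes had 1 count in all 18 libraries, and the part of depth in this was not tested.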
